A study of Mus musculus with 9 samples.

Results

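Solute carriers are membrane proteins that move sugars, amino acids, ions, vitamins, metals and metabolites across the surface of a cell or across the membranes of its organelles. They work as facilitators, as cotransporters driven by ion gradients or as exchangers, and their gene symbols carry a family number that groups them by sequence. In the small intestine the carriers of the apical and basolateral membranes of the absorptive cell handle nutrient uptake, while crypt cells use others for fluid secretion and growth.

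The genes described here are the solute carrier genes other than a set of 15 well-known sugar, amino acid and peptide transporters. They were taken as all array genes whose single annotated symbol starts with Slc and a number, without Slc2a1, Slc2a2, Slc2a5, Slc5a1, Slc5a11, Slc15a1, Slc6a19, Slc6a20a, Slc7a7, Slc7a8, Slc7a9, Slc3a1, Slc3a2, Slc1a1 and Slc1a5. The array held 332 such genes, of which 247 passed a filter on low signal and are called members, out of 12941 genes tested in all. The filter asked for a signal above the 40th percentile of an array, which was 25.9 to 32.0, on at least 3 of the 9 arrays, and the brightest probe set stood for the gene. Of the members, 212 were above it on all 9 arrays, and Slc25a48, Slc37a2 (both inhibitor) and Slc6a20b (ligand) passed only through the 3 arrays of 1 group. The 9 members above the filter on exactly 3 arrays had a brightest array of 31.3 to 59.3, and the 6 genes above it on 2 arrays had one of 31.0 to 65.3. The 85 genes under the filter included Slc10a2, the ileal bile acid transporter, Slc5a8 and Slc6a14.

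The organoids, closed epithelial cultures of mouse small intestine, were kept for 6 days and treated for 5 days from day 1. There were 3 untreated arrays, 3 with an inhibitor of both TGF-beta receptors at 20 uM and 3 with the ligand Tgfbeta1 at 0.04 ng/mL. The strain, age and sex of the mice, the inhibitor compound and any vehicle are not named in the labels. Each array reads a whole culture, which can hold several epithelial cell types, so fewer cells of a type and less RNA per cell cannot be told apart. Whether the replicates of a group came from separate cultures is not in the labels, and p-values therefore reflect array-to-array spread that may be technical.

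All 6 epithelial markers (Epcam, Cdh1, Vil1, Cdx2, Krt8 and Cldn7) were above the filter, with a summed signal of 47020 to 54850 over the 9 arrays. Of these, Vil1 rose by 0.51 ± 0.07 and Cdx2 fell by 0.22 ± 0.08 on the log2 scale under the inhibitor, and none was called with the ligand. Of the markers of cells outside the epithelium, 4 of 8 fibroblast, 3 of 6 leukocyte, 2 of 6 endothelial and 3 of 5 neuronal and glial markers on the array passed, and Col1a1, Col3a1, Ptprc, Cd3e, Pecam1 and Cdh5 did not. Some that passed changed under the inhibitor: Vim, at 181, 197 and 235 untreated, fell by 1.11 ± 0.14 on the log2 scale, Cd68 rose by 0.66 ± 0.15 and S100b rose by 0.58 ± 0.19, and none of them was called with the ligand. The summed signal of the 8 fibroblast markers was 343.5 to 379.8 untreated, 239 to 309 inhibitor and 391.5 to 466 ligand, and the part of such cells in the carrier changes was not tested. The trimmed mean of the signals was 350 on each array, and array medians were 46.1 to 57.9. Among replicates the median log2 SD was 0.142 for members and 0.133 over all genes. Signals below are MAS5 intensities as deposited, given for replicates 1, 2 and 3 in that order, and log2 changes are estimate ± SE from limma on log2(signal + 16), with n = 3 arrays in each group. A gene rose, fell or changed where limma's Benjamini-Hochberg adjusted p over all genes was under 0.05. For single further probe sets of a gene the fit and adjustment were over all probe sets that passed the filter.

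Promoters are shown for the following genes because they belong to the members with the largest changes under the inhibitor that have a promoter in the reference table: Slc46a3 and Slc39a8 for the rises, Slc16a12 and Slc23a4 for the falls. Each window runs from 250 bases before to 50 bases after a start listed in the promoter table, on build GRCm38.p6 from RefSeq, and Slc39a8 is shown at the first of its 2 windows. The start lies 46 bases inside the annotated 5' end of the gene for Slc46a3 and 165 bases for Slc16a12. For Slc39a8 it lies 8397 bases inside the gene and for Slc23a4 10496 bases, so the windows of the last pair lie at internal starts. Capitals mark matches to the Smad box CAGAC, to the AP-1 motif TGANTCA or to the E-box CACGTG on either strand.
Slc46a3 (chr5:147894766-147895065, minus strand): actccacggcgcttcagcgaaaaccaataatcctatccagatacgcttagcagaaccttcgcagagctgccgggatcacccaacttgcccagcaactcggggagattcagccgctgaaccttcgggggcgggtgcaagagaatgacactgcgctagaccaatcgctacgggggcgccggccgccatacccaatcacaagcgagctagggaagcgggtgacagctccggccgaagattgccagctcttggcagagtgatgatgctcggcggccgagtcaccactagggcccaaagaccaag
Slc39a8 (chr3:135825029-135825328, plus strand): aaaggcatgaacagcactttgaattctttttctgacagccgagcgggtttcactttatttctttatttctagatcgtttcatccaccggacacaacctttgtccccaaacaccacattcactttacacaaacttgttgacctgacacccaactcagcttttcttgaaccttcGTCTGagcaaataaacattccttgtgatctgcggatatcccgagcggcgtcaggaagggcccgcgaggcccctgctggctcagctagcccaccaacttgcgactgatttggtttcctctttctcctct
Slc16a12 (chr19:34747279-34747578, minus strand): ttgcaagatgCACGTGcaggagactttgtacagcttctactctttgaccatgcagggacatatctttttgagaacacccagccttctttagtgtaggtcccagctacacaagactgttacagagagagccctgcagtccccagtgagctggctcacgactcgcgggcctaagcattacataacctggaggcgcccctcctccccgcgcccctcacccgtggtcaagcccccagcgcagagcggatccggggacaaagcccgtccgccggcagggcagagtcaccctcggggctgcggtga
Slc23a4 (chr6:34977950-34978249, minus strand): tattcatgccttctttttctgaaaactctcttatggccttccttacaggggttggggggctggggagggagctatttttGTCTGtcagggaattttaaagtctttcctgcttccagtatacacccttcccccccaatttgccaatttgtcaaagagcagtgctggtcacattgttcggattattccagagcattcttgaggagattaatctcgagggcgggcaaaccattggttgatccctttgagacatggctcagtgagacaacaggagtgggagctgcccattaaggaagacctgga
The Smad box occurred once in the windows of Slc39a8 and Slc23a4 and in neither of the others, and the E-box occurred once in that of Slc16a12. No AP-1 match lay in these windows. Taking the first window of a gene, over all 27025 genes with one, 49.7% of windows held CAGAC, 7.93% TGANTCA and 7.24% CACGTG. Of the 190 members with a window, 50% held CAGAC, 6.32% TGANTCA and 13.7% CACGTG. The matches describe letters in these windows only.

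In untreated organoids the members spanned signals from 14.2 to 12607, with a median of 297.7 against 397.5 over all genes tested. The brightest was the mitochondrial ADP/ATP exchanger Slc25a5, at 12607 ± 916 (mean ± SD, n = 3). Slc12a2, the sodium-potassium-chloride cotransporter of fluid secretion (12467 ± 1117), and the mitochondrial phosphate carrier Slc25a3 (12463 ± 679) did not differ from it beyond their spread. Slc25a39, another mitochondrial carrier (10761 ± 617), and Slc9a3r1, whose product is a scaffold that binds the sodium-proton exchanger and not a carrier (7929.8 ± 36.8), came next. These genes were picked, after their values were seen, for their signal in the untreated arrays, and because a probe set's brightness also depends on its probes, the order describes signals and not transcript numbers. Besides the scaffold genes Slc9a3r1 and Slc9a3r2, the symbols Slc4a1ap, Slc7a6os, Slc6a19os and Slc2a4rg-ps also name genes beside or related to a carrier and not carriers themselves.

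Under the inhibitor more members rose than fell. Of 247 members 86 rose and 35 fell, which is 34.8% and 14.2%, where 21.1% of all genes tested rose and 23.8% fell. The 86 include Slc25a48 and Slc37a2, which passed the filter only through the inhibitor arrays where they are high. The 35 include Slc6a20b, which had 0 untreated and 0 inhibitor arrays above the filter. The median log2 change was 0.17 over the members and -0.01 over all genes. Called in either direction were 121 members, or 49%, against 44.9% of all genes. Groups did not overlap in 142 members (57.5%) against 55.9%, and 16 members (6.48%) were called with at least a 2-fold change, against 5.05%. With the ligand the balance lay on the other side: 27 members rose and 48 fell, or 10.9% and 19.4%, where 14.7% of all genes rose and 9.30% fell. The median was -0.03 over the members and 0.05 over all genes, and 75 members (30.4%) were called in either direction, against 24%. Groups did not overlap in 106 members (42.9%) against 38.6%, and 5 (2.02%) were called with at least a 2-fold change, against 2.59%. With arrays centred on their medians, which moved the median of all genes from 0.05 to -0.06, the ligand counts were 16 higher and 63 lower. The balance of all genes turned with it, from 1903 higher and 1203 lower to 984 higher and 1715 lower. The ligand set directly against the inhibitor gave 46 members higher and 102 lower (18.6% and 41.3%, against 32.4% and 22.8% of all genes) and a median of -0.18 against 0.07 over all genes. Called in either direction were 148 members (59.9%, against 55.3%), groups did not overlap in 157 (63.6%, against 60.5%), and 38 (15.4%, against 9.81%) were called with at least a 2-fold change. The 46 include Slc6a20b, which passed the filter only through the ligand arrays. The 102 include Slc37a2, which passed only through the inhibitor arrays, and both genes are among the 38. The comparisons share their arrays pairwise and are not independent of each other.

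**Figure D1:**
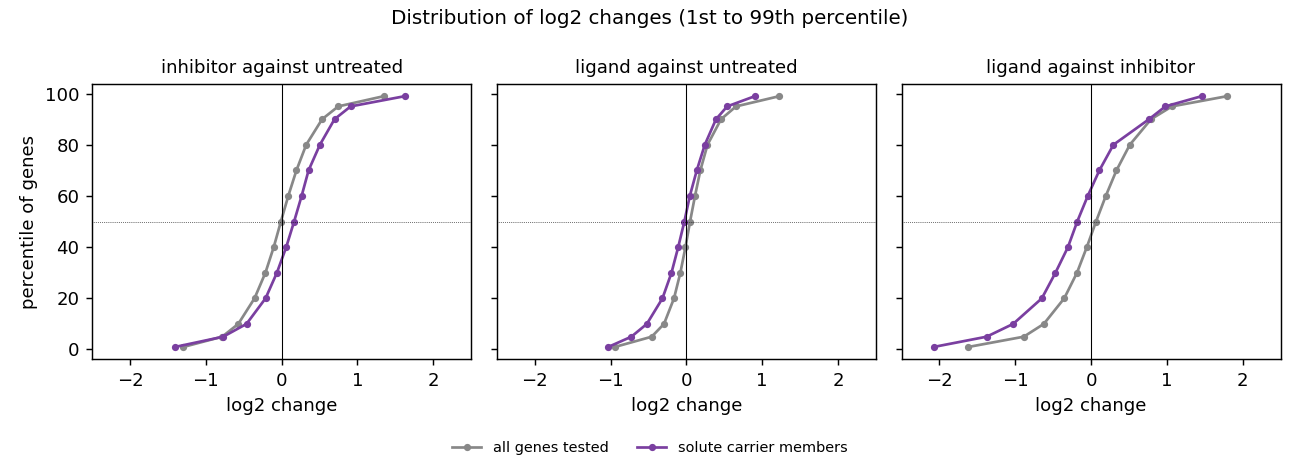
Percentiles (1st to 99th) of the log2 change of the 247 members (purple) and of all 12941 genes tested (grey) in the 3 comparisons; the x axis is the log2 change and the y axis the percentile. From the first panel to the last, the members' median lies at 0.17, -0.03 and -0.18, and that of all genes at -0.01, 0.05 and 0.07.

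Markers of several epithelial cell types moved in the same comparisons. Of 16 enterocyte markers tested 8 rose and 0 fell under the inhibitor (summed signal 80550 to 90090 untreated and 93840 to 113100 inhibitor), and 1 rose and 8 fell with the ligand (62290 to 67550). Of 9 proliferation genes 8 fell under the inhibitor (29150 to 32210 untreated and 18500 to 20450 inhibitor), and 2 rose and 1 fell with the ligand (30870 to 35700). All 7 stem cell markers fell under the inhibitor (21180 to 23490 untreated and 6122 to 6495 inhibitor), and 5 of 7 rose with the ligand (28690 to 31510). Of 7 goblet markers 4 fell and 0 rose under the inhibitor (22490 to 26130 untreated and 16990 to 20520 inhibitor), and 1 rose and 2 fell with the ligand (21070 to 25760). Of 9 enteroendocrine markers 4 rose and 2 fell under the inhibitor (10710 to 12730 untreated and 12470 to 13060 inhibitor), and 7 rose and 0 fell with the ligand (15320 to 16710). Of 5 Paneth markers 0 rose and 1 fell under the inhibitor and 1 rose and 0 fell with the ligand, and all 5 were higher with ligand than with inhibitor. Of 3 tuft markers tested 1 fell under the inhibitor and 2 rose with the ligand. The part these shifts of markers play in the carrier changes was not tested. The 15 transporters left out had 8 members higher and 4 lower under the inhibitor and 0 higher and 10 lower with the ligand. Of another transporter group, the ATP-driven ABC exporters, 8 of 15 rose and 0 fell under the inhibitor, and 2 rose and 5 fell with the ligand. Of the organic anion carriers with Slco symbols 5 of 13 were tested, of which 1 rose and 2 fell in each of these comparisons.

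**Figure D2:**
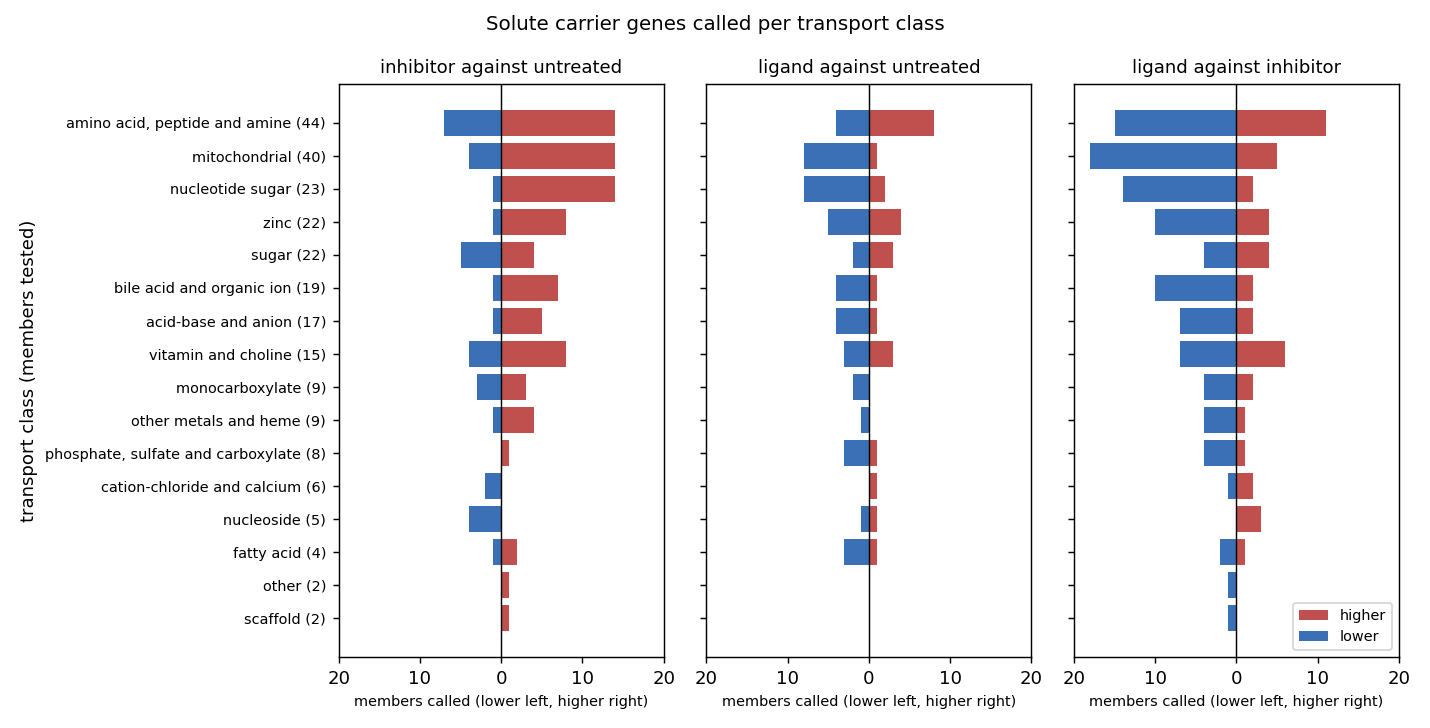
Members called higher (red, to the right) and lower (blue, to the left) in each of 16 transport classes, for the 3 comparisons; the x axis counts members and the number tested stands beside each class. Under the inhibitor 14 of 23 members of the nucleotide sugar class rose and 1 fell, and 4 of 5 nucleoside carriers fell and 0 rose. Of all genes tested 21.1% rose and 23.8% fell there.

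The vitamin and choline carriers held both large rises and large falls. Of 15 members 8 rose and 4 fell under the inhibitor (53.3% and 26.7%, against 21.1% and 23.8% of all genes). The ligand gave 3 rises and 3 falls (20% and 20%, against 14.7% and 9.30%). Slc46a3, a lysosomal relative of the proton-coupled folate transporter, had signals of 112, 88.2 and 91.5 untreated, 381, 384 and 411 with inhibitor and 65.7, 57.4 and 69.7 with ligand. The 3 groups did not overlap, with the inhibitor arrays highest and the ligand arrays lowest, and the log2 changes from untreated were 1.86 ± 0.12 (adjusted p 9.27e-08) and -0.49 ± 0.12 (adjusted p 0.00873). Slc19a3, a thiamine transporter, followed the same order at 110.4, 67.8 and 86.8 untreated, 220.0, 229.9 and 212 inhibitor and 59.2, 57.9 and 39.7 ligand, with changes of 1.20 ± 0.17 and -0.61 ± 0.17. The ligand call of Slc19a3 was lost with probe sets averaged and without untreated replicate 1 or ligand replicate 3 (range of adjusted p 0.00242 to 0.0867). The sodium-coupled vitamin C transporter Slc23a1 lay at 116, 100.1 and 96.4 untreated, 231, 216 and 208 inhibitor and 38.4, 57.1 and 33.4 ligand, with no overlap between any pair of groups. Its log2 difference between ligand and inhibitor was -2.01 ± 0.15 (adjusted p 1.6e-07).

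In the same class the inhibitor lowered Slc23a4, known in rat as a nucleobase transporter, from 315, 300.1 and 314 to 77.9, 61.9 and 67.1, while the ligand arrays read 256, 287 and 289.6. The inhibitor arrays lay far below both other groups, and the change was -1.94 ± 0.10 (adjusted p 2.54e-08), against -0.15 ± 0.10 (adjusted p 0.336) for the ligand, which did not pass. Slc5a6, the carrier of biotin and pantothenate, fell by 1.15 ± 0.12 on the log2 scale under the inhibitor. Slc46a1, the proton-coupled folate transporter of the proximal intestine, had 225, 214 and 211 untreated, 407, 371 and 348 inhibitor and 333, 289 and 332 ligand, so that both treated groups lay above all untreated arrays. It rose by 0.75 ± 0.09 and 0.52 ± 0.09. With the ligand Slc44a2, a choline transporter-like protein, rose most of all members, from 321, 425 and 423 to 816, 852 and 729 (1.01 ± 0.12, adjusted p 5.2e-05), and its inhibitor signals of 258, 307 and 335 overlapped with untreated (-0.36 ± 0.12, adjusted p 0.0269). That inhibitor call was lost under 8 of 20 alternatives, in a range of 0.00412 to 0.15. Its probe set ends in _x_at, a design that can bind related transcripts, and another probe set of the gene read 174 untreated and 255 with ligand, a log2 change of 0.50. The orphan member Slc23a3 rose by 0.92 ± 0.14 with the ligand and had -0.07 ± 0.14 (adjusted p 0.732) under the inhibitor.

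Among the zinc carriers, the Slc39 family brings zinc into the cytosol and the Slc30 family removes it. Under the inhibitor 8 of 22 members rose and 1 fell (36.4% and 4.55%, against 21.1% and 23.8% of all genes). The ligand gave 4 rises and 5 falls (18.2% and 22.7%, against 14.7% and 9.30%). Slc39a8, which carries zinc and manganese, had signals of 838, 999.6 and 1098 untreated, 3464, 3487 and 3632 inhibitor and 724, 819 and 632 ligand. The inhibitor arrays stood clear above the rest and the groups did not overlap, with changes of 1.84 ± 0.10 (adjusted p 3.51e-08) and -0.42 ± 0.10 (adjusted p 0.00958). A second, dimmer probe set of Slc39a8 read 34.2 untreated, 116 inhibitor and 20.0 ligand. Slc39a4, the apical zinc importer of the enterocyte, rose by 0.68 ± 0.09 under the inhibitor and 0.32 ± 0.09 with the ligand, though the ligand call was lost with median centring (adjusted p 0.192, range over the alternatives 0.014 to 0.192). The zinc exporter gene Slc30a4 rose by 0.63 ± 0.08 under the inhibitor and fell by 0.32 ± 0.08 with the ligand, a call lost without untreated replicate 2 or ligand replicate 1 (range 0.00391 to 0.0669), and Slc30a10, a manganese exporter, rose by 0.38 ± 0.08 under the inhibitor.

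The paralogues Slc39a6 and Slc39a10, which encode plasma membrane zinc importers, rose with the ligand and were not called under the inhibitor. Slc39a10 had 234, 268 and 274 untreated, 233, 257 and 269 inhibitor and 526, 483 and 501 ligand, so the ligand arrays lay apart and the other groups overlapped. Its changes were 0.92 ± 0.09 (adjusted p 1.3e-05) with the ligand and -0.03 ± 0.09 (adjusted p 0.83) under the inhibitor. Slc39a6 changed by 0.75 ± 0.09 and -0.16 ± 0.09 (adjusted p 0.179) in these comparisons. Ligand arrays also exceeded inhibitor arrays directly, by 0.95 ± 0.09 for Slc39a10 and 0.91 ± 0.09 for Slc39a6. Slc39a14, an importer of zinc and iron, fell by 0.45 ± 0.07 with the ligand. Under the inhibitor the probe sets of Slc39a14 disagreed: the one used here was not called (-0.02), 1 dimmer probe set rose (0.42) and another fell (-0.46).

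**Figure D3:**
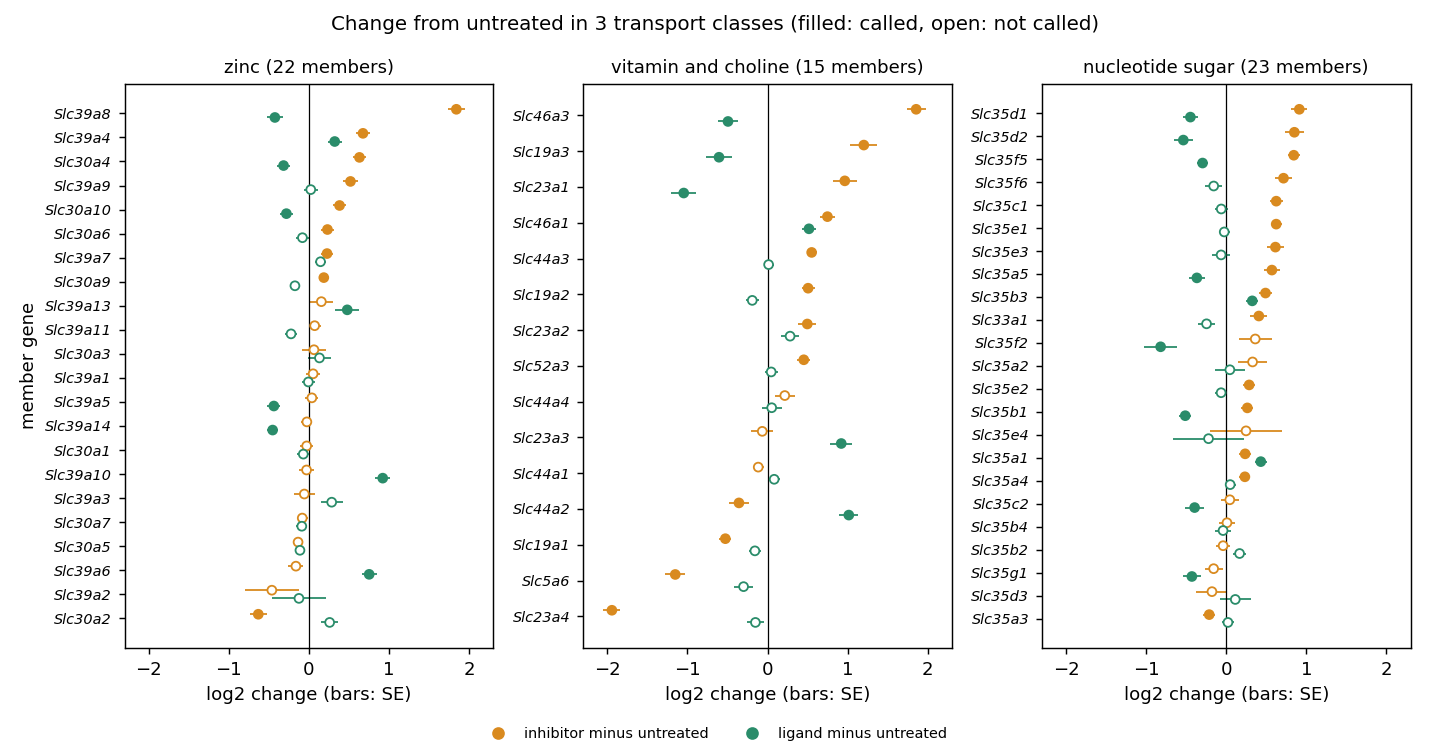
Log2 change from untreated with its SE for each member of the zinc, vitamin and choline, and nucleotide sugar classes under inhibitor (orange) and ligand (green); filled points are called. In each class the inhibitor points reach from calls below 0 to calls above it, and Slc39a8 and Slc46a3 stand farthest right at 1.84 and 1.86.

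Carriers of nucleotide sugars, which supply the Golgi and endoplasmic reticulum with activated sugars for glycosylation, were represented by the Slc35 family, several of whose members have no known substrate, and by the acetyl-CoA carrier Slc33a1. Of 23 members 14 rose and 1 fell under the inhibitor (60.9% and 4.35%, against 21.1% and 23.8% of all genes), with a median change of 0.33. The ligand gave 2 rises and 8 falls (8.7% and 34.8%, against 14.7% and 9.30%). Slc35d1, which carries UDP-glucuronic acid, had 409, 385 and 352 untreated, 728, 662 and 813 inhibitor and 284, 248 and 296 ligand. Its groups did not overlap and it changed by 0.91 ± 0.10 and -0.45 ± 0.10; with probe sets averaged the ligand call was lost (adjusted p 0.0581, range 0.00189 to 0.0581), and its dimmer probe set had 74.1, 67.1 and 68.3 in the 3 groups. Slc35d2 (0.85 ± 0.12 inhibitor, -0.54 ± 0.12 ligand) and Slc35f5 (0.84 ± 0.07 and -0.30 ± 0.07) had the same order of groups. Slc35e1 rose by 0.62 ± 0.07 (0.39 with probe sets averaged) under the inhibitor and was not called with the ligand (-0.02 ± 0.07, adjusted p 0.835). Slc35b1 fell by 0.51 ± 0.07 with the ligand and the CMP-sialic acid carrier Slc35a1 rose by 0.43 ± 0.07.

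Mitochondrial carriers of the Slc25 family link the metabolism of the matrix to the cytosol. Of 40 members 14 rose and 4 fell under the inhibitor (35% and 10%, against 21.1% and 23.8% of all genes). The 14 include Slc25a48, which passed the filter only through the inhibitor arrays. The ligand gave 1 rise and 8 falls (2.5% and 20%, against 14.7% and 9.30%). The heart-type ADP/ATP exchanger Slc25a4 had 1400.1, 1579 and 1877 untreated, 4318, 4446 and 4570.2 inhibitor and 2269.7, 2405 and 2399 ligand. Both treated groups lay above every untreated array, with changes of 1.46 ± 0.09 (adjusted p 7.3e-08) and 0.55 ± 0.09 (adjusted p 0.000733), and its 3 probe sets gave 1.46 to 1.64 under the inhibitor. Its paralogue Slc25a5 was not called, with -0.09 ± 0.13 (adjusted p 0.589) and -0.07 ± 0.13 (adjusted p 0.733), and is named here, after its values were seen, for its kinship. Its ligand change passed with probe sets averaged alone (-0.23, adjusted p 0.0477, range 0.0477 to 0.947). The aspartate-glutamate carrier Slc25a12 had 627, 681 and 633 untreated, 968, 991 and 999 inhibitor and 431, 402 and 408 ligand. These groups did not overlap and the changes were 0.60 ± 0.07 and -0.63 ± 0.07, but neither was called with its probe sets averaged (log2 0.19 and -0.17). Its 2 dimmer probe sets, at 39.4 and 52.1 untreated, were not called. Slc25a44, which carries branched-chain amino acids, changed by 0.69 ± 0.08 and -0.40 ± 0.08 (0.38 and -0.26 with probe sets averaged), and Slc25a20, the carnitine-acylcarnitine carrier, by 0.47 ± 0.08 and -0.13 ± 0.08 (adjusted p 0.303). The calcium-regulated ATP-magnesium/phosphate carrier Slc25a23 fell by 0.97 ± 0.12 under the inhibitor, and Slc25a32, a folate and FAD carrier, fell by 0.78 ± 0.09. Slc25a45 fell from 926, 854 and 673 to 364, 392 and 584 with the ligand.

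Monocarboxylate carriers held the largest change of any member. Slc16a12, which carries creatine, had 311, 475 and 401 untreated, 44.1, 34.6 and 48.2 inhibitor and 629, 682 and 418 ligand. The inhibitor arrays lay just above the filter level and below every other array, with a log2 change of -2.81 ± 0.18 (adjusted p 1.02e-07), which is understated because 16 was added to each signal. Ligand and untreated arrays overlapped (0.52 ± 0.18, adjusted p 0.0557), and that change passed under 4 of 20 alternatives, in a range of 0.0061 to 0.223. Slc16a4 fell by 0.85 ± 0.15 and the lactate transporter Slc16a1 fell by 0.30 ± 0.08 under the inhibitor; the latter was not called with median centring (adjusted p 0.0907, range 0.00153 to 0.0907). Slc16a5 and Slc16a6 rose under the inhibitor and fell with the ligand. Slc16a5 had 299, 262 and 271 untreated, 432, 387 and 376 inhibitor and 124, 116 and 151 ligand, without overlap, and changed by 0.50 ± 0.11 and -1.01 ± 0.11. Slc16a6 changed by 0.47 ± 0.08 and -0.61 ± 0.08. In all, 3 of 9 members rose and 3 fell under the inhibitor (33.3% and 33.3%, against 21.1% and 23.8% of all genes). The ligand gave 0 rises and 2 falls (0% and 22.2%, against 14.7% and 9.30%).

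Of 44 amino acid, peptide and amine carriers 14 rose and 7 fell under the inhibitor, or 31.8% and 15.9%, against 21.1% and 23.8% of all genes. With the ligand 8 rose and 4 fell, or 18.2% and 9.09%, near the 14.7% and 9.30% of all genes. Among the rises, the creatine transporter Slc6a8 had 713, 645 and 637 untreated, 1724, 1581 and 1502 inhibitor and 609, 457 and 513 ligand. The inhibitor arrays were above all others (1.25 ± 0.10, adjusted p 5.43e-07), and the ligand change was -0.34 ± 0.10, a call lost without untreated replicate 1 or ligand replicate 2 and with no intensity trend (range 0.00518 to 0.0962). Slc16a10, which carries aromatic amino acids, had 390.1, 373 and 389.8 untreated, 854, 789 and 784 inhibitor and 280.2, 286 and 296 ligand, with changes of 1.04 ± 0.07 and -0.40 ± 0.07 and no overlap. With its probe sets averaged the inhibitor change of Slc16a10 was 0.37, and its 2 dimmest probe sets were not called (0.19 and -0.34). Slc36a4, an amino acid carrier, rose by 1.16 ± 0.15 under the inhibitor and by 0.68 ± 0.15 with the ligand, from an untreated mean of 45.4 ± 6.05. Among the falls, the cationic amino acid transporter Slc7a2 had 252, 265 and 279.9 untreated, 68.5, 97.9 and 84.5 inhibitor and 312, 244 and 261 ligand. Only its inhibitor arrays stood apart, at -1.51 ± 0.13 (adjusted p 1.06e-06), while its 2 dimmer probe sets, at 29.1 and 47.5 untreated, were not called. The glutamate transporter Slc1a3 fell to inhibitor signals of 14.9, 23.9 and 24.2, all under the filter level, from 76.5, 78.7 and 65.7. The size of that fall is not settled at such signals: the log2 change was -1.28 ± 0.20 and ranged from -1.79 to -0.70 over the alternatives. Slc7a5, a large neutral amino acid exchanger, fell by 0.44 ± 0.07 under the inhibitor and rose by 0.27 ± 0.07 with the ligand, a call lost with median centring (adjusted p 0.307) and without untreated replicate 1 or ligand replicate 1 (range 0.00817 to 0.307).

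The serotonin transporter Slc6a4 fell with the ligand, from 422, 400.0 and 332 to 193, 179 and 204, while the inhibitor arrays at 415, 397 and 387 overlapped with untreated. Its change was -0.94 ± 0.10 (adjusted p 2.1e-05) with the ligand and 0.06 ± 0.10 (adjusted p 0.663) with the inhibitor. The peptide transporter Slc15a2 rose with the ligand from 310.2, 341 and 406 to 577, 743 and 650.4 (0.87 ± 0.16) and spread widely among inhibitor arrays at 339, 456 and 259.9. Slc6a20b, which passed the filter through the ligand arrays alone, read 36.1, 52.2 and 41.3 there and 27.3, 20.4 and 20.3 untreated. The cystine-glutamate exchanger Slc7a11 was not called in any comparison (0.21 ± 0.24 inhibitor, adjusted p 0.51; -0.26 ± 0.24 ligand, adjusted p 0.49).

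Carriers of anions, protons and salts included the apical exchangers of the enterocyte, of which Slc26a6 and Slc26a3 exchange chloride for bicarbonate and Slc9a3 exchanges sodium for protons. Slc26a6 had 2273, 2059 and 1713 untreated, 3740.0, 3849 and 3717 inhibitor and 849, 844 and 1092 ligand. The 3 groups were separate, with changes of 0.91 ± 0.11 (adjusted p 2.14e-05) and -1.11 ± 0.11 (adjusted p 1.33e-05), and the ligand arrays were 4.04-fold below the inhibitor arrays. Slc9a3 changed by 0.44 ± 0.10 and -0.59 ± 0.10. Slc26a3 fell with the ligand from 3623, 3557 and 2962 to 1883, 1681 and 2515 (-0.75 ± 0.12), and its inhibitor change of 0.26 ± 0.12, without overlap, missed the threshold (adjusted p 0.104) and passed only without ligand replicate 3 and in the 2-group fit (range 0.0163 to 0.354). The bicarbonate cotransporter Slc4a4 fell by 0.44 ± 0.09 with the ligand, and Slc4a5 fell by 0.96 ± 0.14 under the inhibitor. The acid-base and anion class counted 5 of 17 higher and 1 lower under the inhibitor (29.4% and 5.88%, against 21.1% and 23.8% of all genes). The ligand gave 1 rise, that of the sodium-proton exchanger Slc9a5 (0.89 ± 0.15), and 4 falls (5.88% and 23.5%, against 14.7% and 9.30%).

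The cotransporter Slc12a2 fell under the inhibitor, with 11368, 13601 and 12432 untreated, 6300.3, 8131 and 7189 inhibitor and 13177, 13967 and 19189 ligand. Inhibitor arrays were below every other array (-0.79 ± 0.14, adjusted p 0.000394). Ligand and untreated arrays overlapped (0.29 ± 0.14, adjusted p 0.149), and the ligand change passed with quantile normalization and with probe sets averaged, in a range of 0.00316 to 0.51. Both dimmer probe sets of Slc12a2, at 4825 and 4049.7 untreated, were called higher with the ligand (0.46, adjusted p 0.0225, and 0.54, adjusted p 0.00301). Slc12a8 fell by 0.43 ± 0.07 under the inhibitor and rose by 0.28 ± 0.07 with the ligand, a rise that was not called with median centring (adjusted p 0.195, range 0.00874 to 0.195). Of the 6 cation-chloride and calcium carriers 0 rose and 2 fell under the inhibitor (0% and 33.3%, against 21.1% and 23.8% of all genes).

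**Figure D4:**
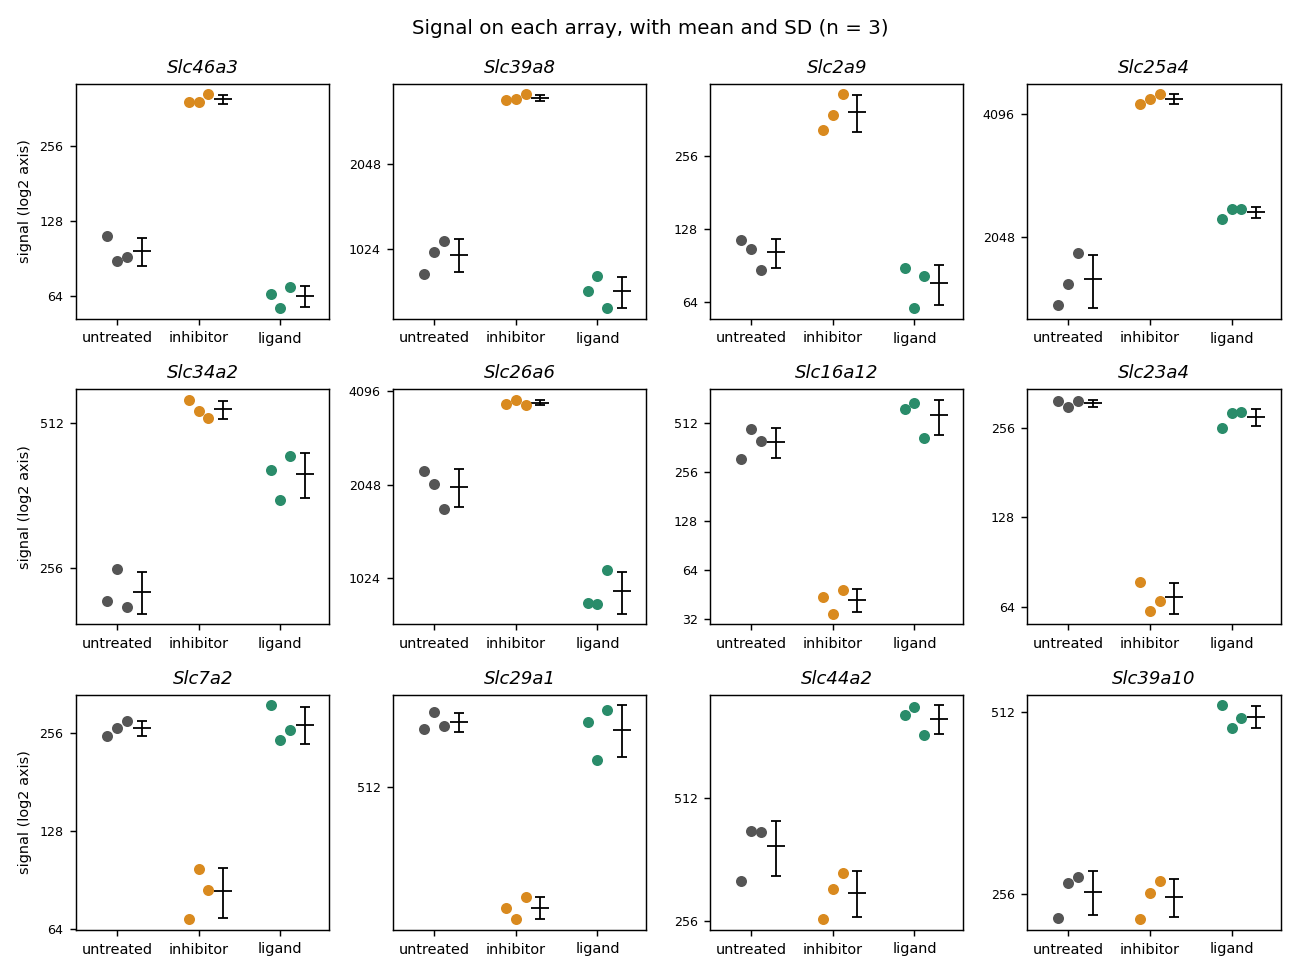
Signal of 12 members on each array (points, log2-scaled y axis that differs between panels) in untreated, inhibitor and ligand organoids, with mean and SD (n = 3) beside the points. Slc16a12, Slc23a4, Slc7a2 and Slc29a1 are lowest in the inhibitor arrays, Slc46a3, Slc39a8, Slc2a9, Slc25a4, Slc34a2 and Slc26a6 are highest there, and Slc44a2 and Slc39a10 are highest in the ligand arrays.

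Of the bile acid and organic ion carriers 7 of 19 rose and 1 fell under the inhibitor (36.8% and 5.26%, against 21.1% and 23.8% of all genes). The ligand gave 1 rise and 4 falls (5.26% and 21.1%, against 14.7% and 9.30%). Slc51a and Slc51b encode the subunits of the basolateral bile acid exporter. Slc51b had 209, 166 and 157 untreated, 299, 279 and 244 inhibitor and 71.2, 105 and 70.9 ligand, with changes of 0.59 ± 0.15 and -0.98 ± 0.15 and no overlap. Slc51a fell with the ligand, from 474, 435 and 405 to 273, 240.0 and 301 (-0.66 ± 0.10), and was not called under the inhibitor (0.09 ± 0.10, adjusted p 0.501). Slc47a1, an exporter of organic cations, fell by 0.98 ± 0.14 and Slc22a4, a carrier of ergothioneine, fell by 0.63 ± 0.14 with the ligand. Slc22a5, the carnitine transporter, rose by 0.36 ± 0.09 under the inhibitor and was not called with the ligand (0.08 ± 0.09, adjusted p 0.592). Slc22a23, without a settled substrate, rose by 0.89 ± 0.08.

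Phosphate, sulfate and carboxylate carriers counted 1 of 8 higher and 0 lower under the inhibitor (12.5% and 0%, against 21.1% and 23.8% of all genes). The ligand gave 1 rise and 3 falls (12.5% and 37.5%, against 14.7% and 9.30%). The apical phosphate transporter Slc34a2 made up both rises, with 218, 255 and 213 untreated, 572, 542 and 526 inhibitor and 409.5, 354 and 438 ligand. All treated arrays were above all untreated ones, with changes of 1.21 ± 0.10 (adjusted p 7.29e-07) and 0.77 ± 0.10 (adjusted p 9.83e-05). Slc13a2, the transporter of citrate and succinate, had 434, 432 and 225 untreated and 94.9, 149 and 172 ligand, the lowest untreated array still above the ligand arrays (-1.27 ± 0.23, adjusted p 0.00116). The sulfate transporter Slc13a1 fell by 0.51 ± 0.15 with the ligand, but the call was lost without untreated replicate 1, untreated replicate 2 or ligand replicate 1 and with no intensity trend, in a range of adjusted p from 0.0016 to 0.111. The phosphate importer Slc20a1 fell by 0.57 ± 0.09 with the ligand.

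Carriers of iron, magnesium and other metals and of heme counted 4 of 9 higher and 1 lower under the inhibitor. Those are 44.4% and 11.1%, against 21.1% and 23.8% of all genes. The ligand gave 0 rises and 1 fall (0% and 11.1%, against 14.7% and 9.30%). Slc40a1, ferroportin, the basolateral iron exporter, had 1490.3, 1569 and 1676 untreated, 2737, 3130.2 and 2976 inhibitor and 1496, 1339 and 1576 ligand. It rose by 0.89 ± 0.08 (adjusted p 1.62e-06) under the inhibitor, and ligand arrays overlapped with untreated (adjusted p 0.396). For the apical iron importer Slc11a2 the brightest probe set was not called against untreated in either comparison (0.17 ± 0.08 and -0.20 ± 0.08), with adjusted p of 0.0873 (range 0.0074 to 0.254) and 0.078 (range 0.0359 to 0.237). Other probe sets of Slc11a2 were: 1 rose under the inhibitor from 522 to 809.7 (0.62, adjusted p 3.34e-05) and 1 fell with the ligand from 555 to 404 (-0.45, adjusted p 0.00283). Both changes passed with probe sets averaged, the inhibitor change also without inhibitor replicate 3, and the ligand change also with median centring and without ligand replicate 3. For magnesium, Slc41a1 fell by 0.81 ± 0.09 under the inhibitor, while Slc41a2 rose there by 0.63 ± 0.12 and fell by 0.90 ± 0.12 with the ligand.

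Of the 5 nucleoside carriers, 4 fell under the inhibitor and 0 rose (80% and 0%, against 23.8% and 21.1% of all genes). Slc29a1, the equilibrative nucleoside transporter, had 654, 703 and 664 untreated, 309, 294 and 323 inhibitor and 673, 573 and 710.3 ligand. Its inhibitor arrays were 2.13-fold below untreated (-1.09 ± 0.09, adjusted p 6.26e-07) and the others overlapped (-0.05 ± 0.09, adjusted p 0.731). Slc29a2 fell by 0.75 ± 0.14. Slc29a3, the lysosomal form, fell by 0.38 ± 0.11 under the inhibitor and rose by 0.45 ± 0.11 with the ligand. The inhibitor call of Slc29a3 was lost with probe sets averaged and without untreated replicate 3 or inhibitor replicate 2 (range 0.0135 to 0.386), and its ligand call without ligand replicate 1 (range 0.00818 to 0.0534). The remaining fall was that of the dim Slc28a3, at an untreated mean of 68.0, with -0.54 (adjusted p 0.0328). It was lost under 5 of 19 alternatives (range 0.0166 to 0.116). Slc28a3 also fell with the ligand (-0.70, adjusted p 0.0166), a call lost under 3 of 19 (range 0.00554 to 0.0693).

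The sugar class without the well-known glucose and fructose carriers counted 4 of 22 higher and 5 lower under the inhibitor. Those are 18.2% and 22.7%, near the 21.1% and 23.8% of all genes. The ligand gave 3 rises and 2 falls, or 13.6% and 9.09%, near the 14.7% and 9.30% of all genes. Slc2a9, which transports urate, had 115, 105 and 86.6 untreated, 328, 377 and 459 inhibitor and 88.0, 60.2 and 81.3 ligand. It rose by 1.77 ± 0.15 (adjusted p 1.35e-06) with no overlap, whereas a second probe set at 56.1 untreated and 57.3 inhibitor was not called. The close paralogues Slc5a4a and Slc5a4b, relatives of the sodium-glucose cotransporter, both fell under the inhibitor. Slc5a4a fell by 0.61 ± 0.19 (lost without untreated replicate 1, untreated replicate 2 or inhibitor replicate 2, range 0.00371 to 0.0796) and Slc5a4b fell by 1.28 ± 0.17, and cross-binding of their probe sets was not tested. Slc5a4b had 885, 735 and 475 untreated and 301, 251 and 258 inhibitor. With the ligand the dim Slc5a4a, at an untreated mean of 54.3, also fell (-0.83, adjusted p 0.00602), under all 19 alternatives. Slc5a4b was not called with the ligand (-0.48, adjusted p 0.0533), but passed under 6 of 20 alternatives (range 0.000459 to 0.228). Slc2a10 fell by 0.58 ± 0.18 under the inhibitor and rose by 0.78 ± 0.18 with the ligand at signals of 19.1 to 102 over all arrays. The inhibitor call of Slc2a10 was lost without untreated replicate 2, untreated replicate 3 or inhibitor replicate 3 (range 0.00692 to 0.0643). Slc37a2, which passed the filter through the inhibitor arrays alone, read 59.3, 49.4 and 32.8 there and 26.9, 7.73 and 26.1 untreated. Since that choice fixes its direction, no test is read for it, and its place among the 4 counted higher is no result.

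Of the 4 fatty acid carriers 2 rose and 1 fell under the inhibitor (50% and 25%, against 21.1% and 23.8% of all genes). The ligand gave 1 rise and 3 falls (25% and 75%, against 14.7% and 9.30%). Slc27a4, the long-chain fatty acid transport protein and acyl-CoA synthetase of the enterocyte, had 799.8, 682 and 660.3 untreated, 1371, 1291 and 1298 inhibitor and 537, 508 and 578 ligand. The groups did not overlap, and the changes were 0.88 ± 0.08 (adjusted p 2.59e-06) and -0.39 ± 0.08 (adjusted p 0.00431). Slc27a2 changed by 0.29 ± 0.08 and -0.33 ± 0.08, its inhibitor call being lost without untreated replicate 3 or inhibitor replicate 3 (range 0.00501 to 0.0592). Slc27a1 rose with the ligand, from 128, 113 and 145 to 205, 238 and 226 (0.73 ± 0.12), and was not called under the inhibitor (-0.24 ± 0.12, adjusted p 0.108). The fall under the inhibitor was that of the dim Slc27a5, at an untreated mean of 60.9 (-0.50, adjusted p 0.0241). This call was lost under 6 of 19 alternatives (range 0.00235 to 0.084). Slc27a5 also fell with the ligand (-0.74, adjusted p 0.00571), under all 19 alternatives.

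Set directly against the inhibitor arrays, the ligand arrays differed most in Slc16a12, which was higher by 3.32 ± 0.18 (adjusted p 8.27e-09), followed by Slc46a3 at -2.35 ± 0.12 and Slc39a8 at -2.26 ± 0.10. Slc23a4 (1.79 ± 0.10), Slc7a2 (1.54 ± 0.13) and Slc44a2 (1.37 ± 0.12) were also higher with the ligand. Slc2a9 (-2.13 ± 0.15), Slc26a6 (-2.01 ± 0.11) and Slc19a3 (-1.81 ± 0.17) were lower. Of the 106 members with several probe sets, 1 had calls in opposite directions under the inhibitor and 0 with the ligand. Between ligand and inhibitor there were 2, Slc1a4 and Slc38a9. Some probe sets were called and others not in 43 of the 106 under the inhibitor, 37 with the ligand and 54 between them. In these members the call depends on the probe set used.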

How the data were processed

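The 9 arrays (Affymetrix Mouse Genome 430 2.0, 3 per group) were hybridised with RNA amplified and biotin-labelled for a 3' assay, per the labels' protocols. The deposited intensity values are MAS5 signals, per the submitters' processing notes. They were used on their own scale, as log2(signal + 16). The offset compresses changes of dim genes, and 28.9% of all values were at or below it. One probe set, the brightest, stood for each gene with a single annotated symbol and a signal above the 40th percentile on at least 3 arrays. limma 3.58.1 in R 4.3.3 (lmFit, eBayes with an intensity trend) was fitted to all 9 arrays and 12941 genes with 6 residual degrees of freedom, with 2-sided tests and Benjamini-Hochberg adjustment at 0.05, and was tested on simulated data. Values of single further probe sets, and counts of probe sets called, came from a separate fit. It took all 23887 probe sets above the filter with 1 symbol and had its own adjustment. The number of arrays limits the precision.

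The genes named were, per comparison, the 10 rising and 10 falling members with the largest change among called members whose groups do not overlap, the 3 smallest p-values of each transport class and a list of intestinal carriers. Others are named as chosen after their values were seen. Members, classes and lists were chosen with earlier results of these data known. Promoter windows came from RefSeq (GRCm38.p6). Alternatives were the offset, the filter, scaling, the probe set rule, the variance model, a 2-group fit, a replicate block and leaving out each array.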

Additional observations from a re-analysis of the deposited data

How the results depend on the processing

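Of the 6 counts of members called, 5 stayed within 1.5 times their value under all 20 alternatives. The exception was the count of members higher with the ligand, which went from 27 to 16 with arrays centred on their medians, while the count lower went from 48 to 63. All genes turned in the same way there, from 1903 higher and 1203 lower to 984 and 1715. Leaving out each array in turn gave 75 to 95 higher and 26 to 36 lower under the inhibitor, 22 to 32 higher and 36 to 52 lower with the ligand, and 42 to 47 higher and 94 to 101 lower between ligand and inhibitor. The genes that the naming rule gave in any comparison and Slc25a5, 98 in all, were followed in all comparisons under each alternative that kept them. Of these, 54 of 69 called under the inhibitor, 44 of 57 with the ligand and 78 of 85 between them were called under every one. Slc25a5 reversed between ligand and inhibitor with probe sets averaged (log2 0.02 to -0.23, adjusted p 0.0244); the cause was not tested. Deviations of same-numbered arrays from their group means correlated at -0.0778 to 0.0829. Whether the replicate numbers pair the arrays is not settled by this, because arrays of different numbers were not compared. With the replicate block the counts were 84 higher and 33 lower under the inhibitor, 27 and 48 with the ligand, and 47 and 99 between them. With probe sets averaged the inhibitor change was -0.66 for Slc7a2 and 0.90 for Slc2a9, and the ligand change was 0.64 for Slc44a2 and 0.54 for Slc15a2. An offset of 64, which compresses low signals by construction, gave a ligand change of -0.33 for Slc46a3 and an inhibitor change of -0.47 for Slc29a2. Where signals lay under the filter level, as for Slc1a3 with inhibitor, the size of a change was not settled.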

Other observations

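Carriers outside the Slc symbols also changed. Among the ABC exporters, which use ATP, Abca1 rose most under the inhibitor, by 3.15 ± 0.14 on the log2 scale (limma, n = 3 arrays per group). Its mean signal went from 289 untreated to 2636 with inhibitor. The sterol exporter subunit Abcg5 rose by 1.69 ± 0.09 there. Abcb1a, a drug exporter of the apical membrane, rose by 1.20 ± 0.08, and the conjugate exporter Abcc2 rose by 0.88 ± 0.11. The summed signal of the 15 exporters was 12020 to 13370 untreated, 25610 to 26780 with inhibitor and 9637 to 10090 with ligand. Among the organic anion carriers, Slco2b1 had changes of -0.81 ± 0.12 under the inhibitor and -1.35 ± 0.12 with the ligand, both called, and Slco3a1 rose by 1.29 ± 0.17 with the ligand.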
